A study of Homo sapiens with 6 samples.

Results

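Human chromosome 19 carries large tandem clusters of ZNF zinc finger genes on both arms. Of 243 protein-coding genes of that chromosome with a ZNF symbol and a row in the count table, 161 had a mean of 1 or more CPM (counts scaled to library size) over the 6 libraries and are described here, out of 23459 rows in all. Of these, 58 lie on the short arm, 19p, and 103 on the long arm, 19q. Genes were chosen by this mean level over both groups, which is therefore a description and not a result, and all 161 passed the count filter of the test. Of the 82 left out, 30 had no read in any library, where a floor of 3 counts would be 0.092 to 0.101 CPM, and 16 still passed the filter.

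Raji is an established Burkitt's lymphoma cell line of germinal centre origin. The OBF1 shRNA group carried 1 lentiviral short hairpin against OBF1, the B cell coactivator encoded by POU2AF1 that binds DNA with Oct factors, and the control shRNA group carried the non-targeting hairpin SHC002. Both groups were infected for 5 days and kept for 7 days in 3 μg/ml puromycin, and each gave 3 poly(A) RNA libraries. With a single hairpin against OBF1, effects of the hairpin itself and of lowered OBF1 cannot be told apart. Whether a group's libraries were separate cultures is not stated in the labels, so p-values reflect library-to-library spread that may be only technical.

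Most proteins of this family join a row of C2H2 zinc fingers, each a small zinc-holding loop that reads a few bases of DNA, to an N-terminal KRAB domain. The KRAB domain binds TRIM28 (KAP1), which brings the histone H3 lysine 9 methyltransferase SETDB1, HP1 proteins and histone deacetylases to the site. Many of these proteins silence retrotransposons, and the genes themselves arose by tandem duplication, so neighbours are often close paralogs. The counting rule for reads that fit more than 1 gene is not given in the sources used here, and values of single members are uncertain to that extent.

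The libraries held 29569281 to 32612429 counts each. POU2AF1 was at 244, 241 and 241 CPM in OBF1 shRNA libraries, against 512, 516 and 512 CPM in control shRNA libraries (here and below, CPM of single genes uses normalization by trimmed mean of M values, TMM). Fold changes and p-values below are from the quasi-likelihood test of edgeR over all 12010 genes tested, OBF1 shRNA over control shRNA, and "called" means a Benjamini-Hochberg adjusted p under 0.05. Of all genes tested, 75.4% were called, 37.5% higher and 37.9% lower. Scaling by library sizes alone in place of TMM moved fold changes by -0.11 on the log2 scale at the median, and then 3476 genes were higher and 5778 lower, against 4508 and 4550. All 8 listed B cell markers were above 1 CPM, and they summed to 4547 to 4605 CPM in OBF1 shRNA libraries and 2822 to 2901 CPM in control shRNA libraries. The 4 germinal centre markers summed to 387 to 399 CPM in OBF1 shRNA libraries and 772 to 801 CPM in control shRNA libraries. None of the markers of other cells reached a mean of 1 CPM. For 7 markers of T and NK cells the sum was 0.844 to 0.894 CPM in OBF1 shRNA libraries and 0.0640 to 0.208 CPM in control shRNA libraries, and CD2, CD3D, CD5 and CD7 had no read. The 6 myeloid markers summed to 1.97 to 2.23 CPM in OBF1 shRNA libraries and 2.26 to 2.32 CPM in control shRNA libraries, with MPO at 0. The 6 markers of epithelial or packaging cells summed to 0.192 to 0.211 CPM in OBF1 shRNA libraries and 0.0893 to 0.254 CPM in control shRNA libraries, with CDH2 and KRT18 at 0. In RNA from a whole culture, fewer expressing cells and less RNA per cell cannot be told apart.

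Promoter windows are shown for 4 members that changed by large amounts, to let the octamer, the site at which OBF1 binds with Oct factors, be seen where it occurs. Windows run from 250 bases before to 50 after the start of the gene, from RefSeq (GRCh38.p14), 5′ to 3′ on the strand of the gene. In the first pair, capitals mark the octamer ATGCAAAT, which was searched as written and as its reverse complement ATTTGCAT. ZNF844 (chr19:12064481-12064780, + strand) and ZNF682 (chr19:20039456-20039755, - strand) were the members with an octamer that fell furthest.

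ZNF844: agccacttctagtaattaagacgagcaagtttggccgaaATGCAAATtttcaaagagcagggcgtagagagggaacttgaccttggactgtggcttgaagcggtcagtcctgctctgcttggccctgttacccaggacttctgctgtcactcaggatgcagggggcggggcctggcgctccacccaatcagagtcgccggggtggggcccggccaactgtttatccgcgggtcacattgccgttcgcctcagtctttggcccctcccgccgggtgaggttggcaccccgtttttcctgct
ZNF682: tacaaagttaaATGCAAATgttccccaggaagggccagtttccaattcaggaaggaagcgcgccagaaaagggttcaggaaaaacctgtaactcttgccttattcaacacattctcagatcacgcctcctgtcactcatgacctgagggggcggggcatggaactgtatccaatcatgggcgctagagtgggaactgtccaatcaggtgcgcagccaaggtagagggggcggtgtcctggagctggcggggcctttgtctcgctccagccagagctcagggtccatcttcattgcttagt

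In the next pair, capitals mark CG dinucleotides. ZNF461 (chr19:36666788-36667087, - strand) had the largest fall of all members, and ZNF784 (chr19:55624517-55624816, - strand) was among the members with the largest rises.

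ZNF461: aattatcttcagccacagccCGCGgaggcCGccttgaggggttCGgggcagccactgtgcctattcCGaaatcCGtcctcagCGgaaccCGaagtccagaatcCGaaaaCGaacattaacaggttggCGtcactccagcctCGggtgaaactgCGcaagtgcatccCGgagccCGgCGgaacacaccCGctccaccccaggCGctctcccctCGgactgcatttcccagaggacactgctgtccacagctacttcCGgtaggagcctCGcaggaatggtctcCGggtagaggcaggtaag
ZNF784: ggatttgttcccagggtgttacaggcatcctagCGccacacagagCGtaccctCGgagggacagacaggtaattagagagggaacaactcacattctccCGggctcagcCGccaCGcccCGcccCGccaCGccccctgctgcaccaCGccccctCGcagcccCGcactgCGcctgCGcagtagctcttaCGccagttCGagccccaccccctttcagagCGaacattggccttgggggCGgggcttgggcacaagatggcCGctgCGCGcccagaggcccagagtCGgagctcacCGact

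The table held windows for 147 of the 161 members, 182 windows in all. The octamer was in 6 of these windows (3.30%), each of a different gene, against 1.77% of all 35116 windows of the table and 1.38% of 12436 windows of protein-coding genes at the members' minimum level. The 6 genes, all on 19p and all with a KRAB domain, were ZNF844, ZNF682, ZNF441 and ZNF430, called lower, and ZNF564 and ZNF700, with log2 fold changes of -0.11 and 0.00 and no call. Counted from the start of the gene, the octamer began at -211 in ZNF844 and at -239 in ZNF682. Of 98 genes called lower with a window, 4 held an octamer, in 3.17% of their windows, near the 3.30% of all members. Of 13 called higher with a window, 0 held one, and so few genes do not allow a comparison. Of all members 65.8% were called lower and 9.94% higher. A match describes the letters of the window and is not a measured binding site, and most members that fell had none. CG dinucleotides numbered 20.5 per window at the median of the members and 25 over protein-coding genes at that level. The oppositely moving ZNF461 and ZNF784 held 22 and 23.

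Most of the chromosome 19 ZNF genes were lower in OBF1 shRNA cells, on both arms, by modest amounts. Of the 161, 106 were called lower (65.8%), 16 higher (9.94%) and 39 were not called. The genes called lower fell 1.13- to 3.68-fold, with a median of 1.43-fold. Those called higher rose 1.09- to 1.93-fold, with a median of 1.25-fold. The share called in either direction, 75.8%, was close to the 75.4% of all genes tested. The shares by direction were 65.8% lower against 37.9% of all genes, and 9.94% higher against 37.5%. The median log2 fold change was -0.34, with an interquartile range of -0.59 to -0.06, while the median over all genes tested was -0.01. Falls of at least 1.5-fold were called for 43 members, which is 26.7% of them, against 10.4% of all genes tested. Rises of that size were called for 3 members (1.86%), against 12.9% of all genes. Falls of at least 2-fold were called for 4 members (2.48%), against 4.35% of all genes. Of 10237 protein-coding genes at the members' minimum level, 78.3% were called, 39.0% lower and 39.3% higher. In that set falls of at least 1.5-fold were called for 8.3%, rises of that size for 11.7% and falls of at least 2-fold for 2.59%. The libraries of the groups did not overlap for 127 members, 108 of them lower and 19 higher. Of all genes tested this was so for 76.6%, with 38.7% lower and 38.0% higher.

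The arms gave similar medians and shares called lower in the TMM-scaled fit, and these drew apart with an offset for GC content. On 19p, 37 of 58 members were lower and 5 higher, with a median log2 fold change of -0.35. On 19q, 69 of 103 were lower and 11 higher, with a median of -0.34. The shares were 63.8% lower and 8.62% higher on 19p and 67.0% and 10.7% on 19q, against 37.9% and 37.5% of all genes tested. Falls of at least 1.5-fold were called for 20.7% of members on 19p and 30.1% on 19q, against 10.4% of all genes tested. With the GC offset, 30 members of 19p were lower (51.7%) and 7 higher (12.1%), with a median of -0.20. On 19q 70 members were then lower (68.0%) and 8 higher (7.77%), with a median of -0.28. Of all genes in that fit 38.6% were lower and 39.1% higher. The difference between the arms was not tested. Summed over the 19p members, expression was 761, 772 and 742 CPM in OBF1 shRNA libraries, against 903, 881 and 892 CPM in control shRNA libraries. Summed over the 19q members, it was 1418, 1464 and 1429 CPM in OBF1 shRNA libraries, against 1798, 1796 and 1810 CPM in control shRNA libraries. Every OBF1 shRNA library lay below every control shRNA library on both arms. The ratio of the group means was 0.850 on 19p and 0.798 on 19q. Scaled by library sizes alone the ratios were 0.788 and 0.740. With 3 libraries against 3, an exact permutation test cannot go below a 2-sided p of 0.1, and these sums are a description.

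**Figure D1:**
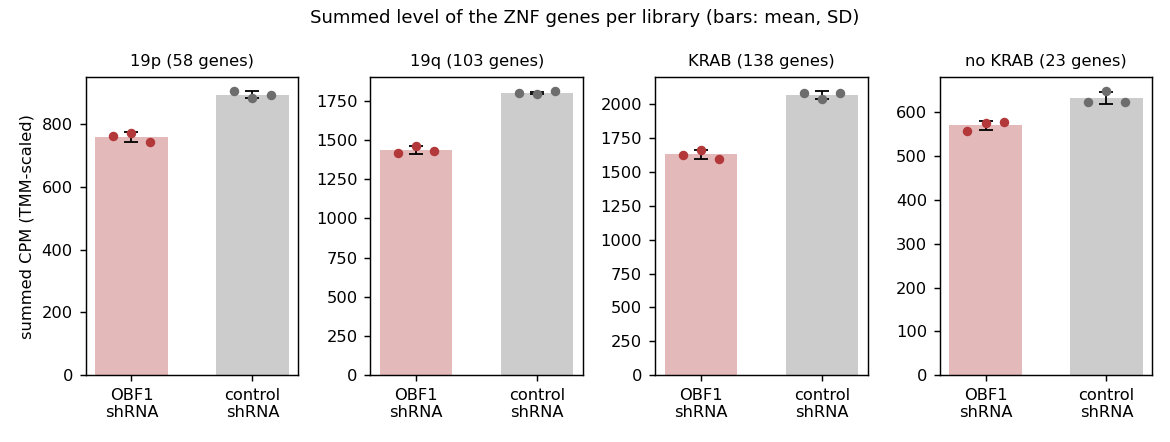
Summed CPM (TMM-scaled, vertical axes from 0) of the members on 19p, on 19q, with and without a KRAB domain, for the OBF1 shRNA and control shRNA libraries. Points are libraries, bars group means and whiskers SD (n = 3 each); in each panel all 3 OBF1 shRNA libraries lie below all 3 control shRNA libraries, with means of 758 against 892 CPM on 19p.

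Non-ZNF genes of the same arms were more often higher than lower, by a margin that was much smaller with the GC offset. Of 321 other protein-coding genes of 19p at the same minimum level, 58.6% were called higher and 19.6% lower, with a median log2 fold change of 0.21. Of 294 on 19q, 55.4% were higher and 22.1% lower, with a median of 0.19. On library sizes alone 36.0% of the calls on 19p and 40.6% of those on 19q were lower, in place of 25.1% and 28.5%, and the medians were 0.10 and 0.08. With the GC offset the medians were 0.03 and 0.04, with 43.1% higher and 36.2% lower on 19p and 136 higher and 103 lower of 294 on 19q, against 39.1% higher and 38.6% lower of all genes in that fit. Of 614 non-ZNF genes of chromosome 19 with a GC value, 517 had 55% GC or more. Of the 3 under 40% GC, 2 were called lower and 0 higher. Of the 10 from 40% to 45%, 8 were lower and 1 higher, and of the 17 from 45% to 50%, 4 and 9. ZNF genes of other chromosomes moved in the same direction as those of chromosome 19. Of 191, 114 were lower (59.7%) and 35 higher (18.3%), with a median of -0.22. On library sizes alone 129 were lower and 17 higher. The difference between these sets was not tested.

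**Figure D2:**
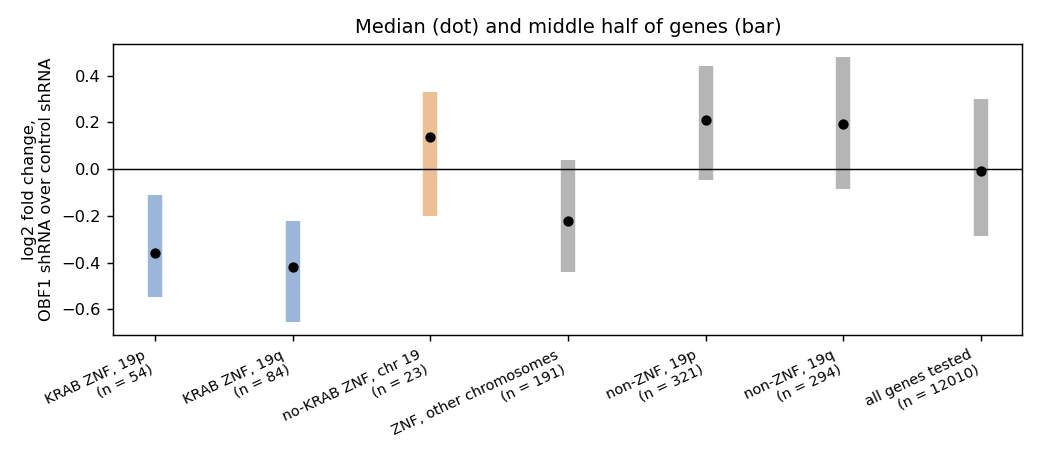
Median (dot) and interquartile range (bar) of log2 fold changes, OBF1 shRNA over control shRNA, in gene sets at the same minimum level and in all genes tested. The KRAB ZNF genes of both arms lie below 0 over their whole interquartile range, and the non-ZNF genes of the same arms have medians of 0.21 and 0.19.

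The choice of genes had not used protein structure, by which the members were also divided. A KRAB A box was found in translated GENCODE coding sequences of 138 members and in none of those of the other 23. Scores of the match fell into separate ranges, from -11 to 19 without a box and from 59 upwards with one, ZNF473 being the lowest of those with one. Of the 138 KRAB members, 99 were lower (71.7%) and 8 higher (5.80%), with a median log2 fold change of -0.40. Of all genes tested 37.9% were lower and 37.5% higher. Of the 23 without a KRAB box, 7 were lower (30.4%) and 8 higher (34.8%), near those shares, with a median of 0.14. The balance of this small set depended on scaling. Library sizes alone gave it 6 higher and 8 lower and a median of 0.03, and with an offset for GC content 6 higher and 8 lower and a median of -0.10. GC content differed along with the KRAB box. All 3 members without a box and under 40% GC and both of those from 40% to 45% were called lower, while the 4 KRAB members from 55% GC had 1 lower and 1 higher and a median of -0.06. Of 94 ZNF genes of other chromosomes without a KRAB box, 50 were lower (53.2%) and 21 higher, with a median of -0.14. Of 97 with a box there, 64 were lower (66.0%) and 14 higher, with a median of -0.28. The parts of structure and GC content in the split were not tested. Of the 23, 19 are on 19q, where KRAB members gave 64 lower and 3 higher of 84, and members without a box 5 lower and 8 higher. On 19p, KRAB members gave 35 lower and 5 higher of 54. The median log2 fold change of KRAB members was -0.36 on 19p and -0.42 on 19q, a difference that was not tested. The KRAB members summed to 1622, 1662 and 1594 CPM in OBF1 shRNA libraries, against 2079, 2031 and 2079 CPM in control shRNA libraries. Those without a box summed to 557, 574 and 577 CPM in OBF1 shRNA libraries, against 622, 647 and 623 CPM in control shRNA libraries. The sum was thus lower although the median fold change was above 0. In this set, the 5 members with the highest CPM in control shRNA libraries, ZNF146, ZNF507, ZNF581, ZNF574 and ZNF260, were all called lower.

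**Figure D3:**
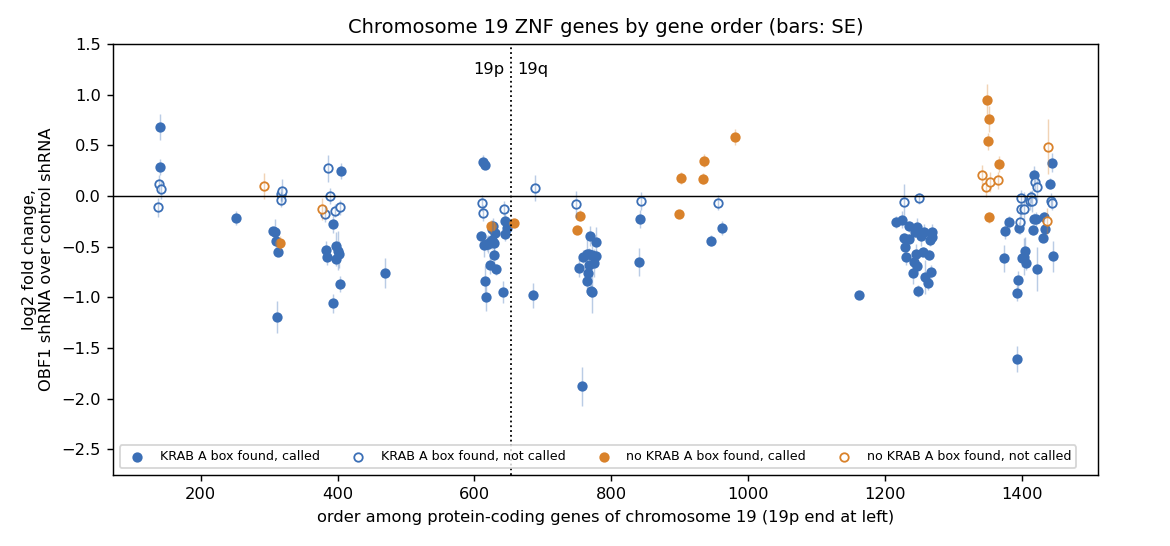
Log2 fold change (vertical axis, bars SE) of each member against its order among the protein-coding genes of chromosome 19, with the arms divided by the dotted line. Filled points were called. Points of KRAB members lie mostly below 0 on both arms, and the rises on 19q lie mostly at members without a KRAB box, up to 0.95 for ZNF524.

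Runs of neighbouring ZNF genes, taken as a cluster where at most 3 other protein-coding genes separated neighbours, differed in how many genes reached the minimum level and in how far they fell. The 19q run from ZNF565 to ZNF573 had the lowest median of the clusters with at least 5 members. In it 17 of 18 members were lower and 0 higher, with a median log2 fold change of -0.59. The run from ZNF613 to ZNF331 had 23 of 25 lower, 0 higher and a median of -0.43. On 19p, the run from ZNF101 to ZNF254 had 20 of 25 lower and 2 higher, with a median of -0.39. The run from ZNF627 to ZNF791 had 9 of 15 lower, 1 higher and a median of -0.50, and the run from ZNF317 to ZNF846 had 6 of 9 lower, 0 higher and a median of -0.36. The largest cluster, from ZNF805 to ZNF446 at the end of 19q, was more mixed, with 16 of 32 lower, 3 higher and a median of -0.22. In the order given, the shares lower were 94.4%, 92.0%, 80.0%, 60.0%, 66.7% and 50.0%. Of all members 65.8% were lower and 9.94% higher, and of the KRAB members 71.7% and 5.80%. Of all genes tested 37.9% were lower and 37.5% higher. Differences between the clusters were not tested.

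Of the clusters with at least 5 members, those from ZNF554 to ZNF77 and from ZNF579 to ZNF580 had more members called higher than lower. Their counts are few, and 37.5% of all genes tested were called higher. Of the KRAB members 71.7% were lower and 5.80% higher. Whether these 2 clusters differ from the other members was not tested. The 5 KRAB members from ZNF554 to ZNF77, near the end of 19p, had 2 higher, 0 lower and a median of 0.12. The 6 members from ZNF579 to ZNF580 on 19q, none with a KRAB box, had 3 higher, 1 lower and a median of 0.34. In a further 19q cluster, from ZNF45 to ZNF180, 3 of 20 genes reached 1 CPM and 12 had no read in any library. Neighbouring members of a cluster differed by 0.27 in log2 fold change at the median of 137 pairs, and all pairs of members by 0.38. Neighbours are often paralogs, and the part of shared reads in this was not tested.

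The largest falls on 19q were in ZNF461 and ZNF460, both KRAB zinc finger genes. ZNF461 was at 0.950, 1.38 and 1.09 CPM in OBF1 shRNA libraries, against 5.35, 3.63 and 3.68 CPM in control shRNA libraries, a log2 fold change of -1.88 (SE 0.19, edgeR adjusted p = 6.01e-08). Control replicate 1 was the highest of its group. The largest falls and rises were named from called members whose groups do not overlap, so their separation is not a result. ZNF460 was at 2.39, 2.79 and 2.36 CPM in OBF1 shRNA libraries, against 8.80, 6.43 and 7.81 CPM in control shRNA libraries, a log2 fold change of -1.61 (SE 0.13, edgeR adjusted p = 2.78e-09). Its immediate neighbour in the family, ZNF805, was 1.95-fold lower, at 6.94 ± 0.607 CPM in OBF1 shRNA libraries and 13.5 ± 0.648 CPM in control shRNA libraries (SD, n = 3 each). All 3 genes were low, at under 15 CPM in every library.

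ZNF473, known as ZFP100, is a part of the U7 particle that trims the ends of histone messages. It stood out among the 19q falls by its level. It was at 31.4, 31.1 and 31.3 CPM in OBF1 shRNA libraries, against 61.2, 62.2 and 60.7 CPM in control shRNA libraries, with a log2 fold change of -0.97 (SE 0.04, edgeR adjusted p = 7.82e-14). The libraries of each group lay within 2 CPM of each other. ZNF181 was 1.97-fold lower and ZNF570, near the minimum level, 1.93-fold lower.

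On 19p, the KRAB gene ZNF177 had the largest fall. It was at 1.30, 1.05 and 1.18 CPM in OBF1 shRNA libraries, against 2.50, 2.80 and 2.76 CPM in control shRNA libraries, a log2 fold change of -1.19 (SE 0.16, edgeR adjusted p = 2.21e-06). ZNF177 shares a readthrough gene with ZNF559, which has a row of its own, so its reads may have been divided. ZNF844 was at 3.76, 4.07 and 3.89 CPM in OBF1 shRNA libraries, against 8.13, 8.72 and 7.55 CPM in control shRNA libraries, a log2 fold change of -1.06 (SE 0.09, edgeR adjusted p = 1.16e-08). For both, groups without overlap were a condition of being named here. ZNF486, ZNF730, ZNF490 and ZNF682 were between 1.79- and 2.00-fold lower.

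**Figure D4:**
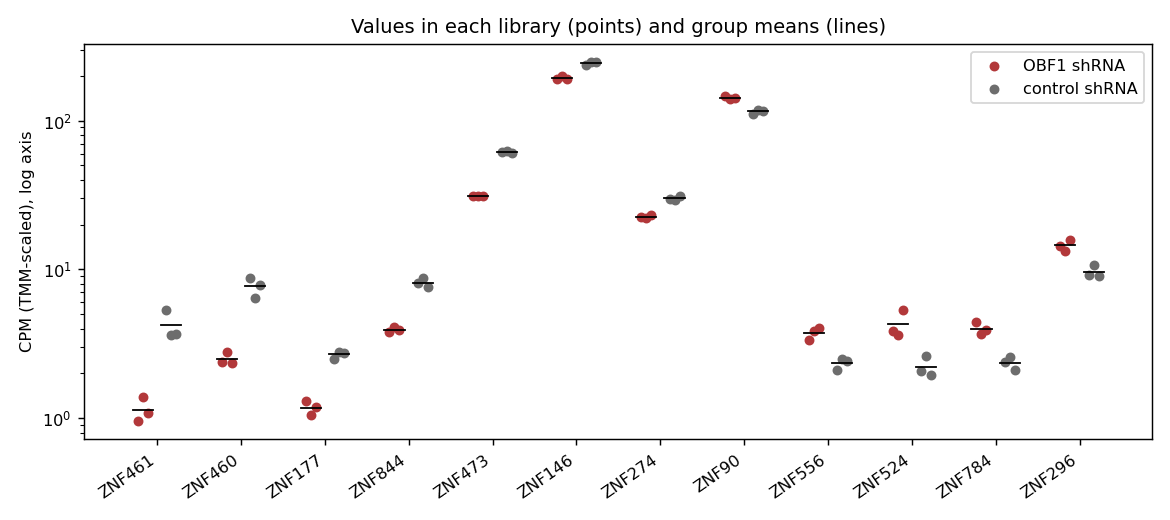
CPM (TMM-scaled, log axis) of 12 members in each OBF1 shRNA and control shRNA library, with lines at the group means. ZNF461 to ZNF274 are lower and ZNF90 to ZNF296 higher in OBF1 shRNA libraries. The groups do not overlap for any of the 12, which was a condition of choice for all but ZNF146 and ZNF274. Of all genes tested, 76.6% had groups that do not overlap.

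The 2 largest rises were on 19q, in genes whose proteins carry fingers without a KRAB box. ZNF524, a protein that binds telomere repeats, was at 3.84, 3.61 and 5.36 CPM in OBF1 shRNA libraries, against 2.08, 2.62 and 1.94 CPM in control shRNA libraries, with a log2 fold change of 0.95 (SE 0.16, edgeR adjusted p = 4.14e-05). OBF1 shRNA replicate 3 was the highest, and groups without overlap were a condition of being named. ZNF784 was at 4.40, 3.67 and 3.89 CPM in OBF1 shRNA libraries, against 2.37, 2.59 and 2.10 CPM in control shRNA libraries, a log2 fold change of 0.76 (SE 0.13, edgeR adjusted p = 3.82e-05). ZNF865, which lies between these genes in the order of the family, rose 1.45-fold, a log2 fold change of 0.54. With the offset for GC content the log2 fold change was 0.17 for ZNF865, 0.71 for ZNF524 and 0.52 for ZNF784. Their more abundant neighbour ZNF581 was 1.16-fold lower, at 43.3 ± 1.98 CPM in OBF1 shRNA libraries and 50.0 ± 4.44 CPM in control shRNA libraries (SD, n = 3 each). Its log2 fold change of -0.21 was -0.13 without control shRNA replicate 2, -0.32 on library sizes alone and -0.35 with the GC offset.

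ZNF296, whose mouse counterpart is known from work on stem cell reprogramming, was at 14.4, 13.4 and 15.7 CPM in OBF1 shRNA libraries, against 9.19, 10.7 and 9.05 CPM in control shRNA libraries. Its log2 fold change was 0.58 (SE 0.08, edgeR adjusted p = 3.31e-06). ZNF428 rose 1.27-fold and the KRAB gene ZNF132 1.26-fold. With the GC offset the log2 fold change was 0.28 for ZNF296, and 0.17 in place of 0.35 for ZNF428. On 19p the rises were all in KRAB genes and 1 exceeded 1.5-fold. ZNF556 was at 3.34, 3.87 and 4.05 CPM in OBF1 shRNA libraries, against 2.11, 2.50 and 2.41 CPM in control shRNA libraries, a log2 fold change of 0.68 (SE 0.13, edgeR adjusted p = 1.18e-04). ZNF506, ZNF90, ZNF57 and ZNF791 rose between 1.19- and 1.26-fold. On library sizes alone the log2 fold change was 0.19 in place of 0.30 for ZNF90 and 0.18 in place of 0.28 for ZNF57. With the GC offset all 5 rises on 19p were larger. The values were 0.73 for ZNF556, 0.41 for ZNF506, 0.43 for ZNF90, 0.31 for ZNF57 and 0.34 for ZNF791. The call of ZNF791 was lost on library sizes alone (edgeR adjusted p = 0.150, log2 fold change 0.14) and without control shRNA replicate 2 (edgeR adjusted p = 0.0875, log2 fold change 0.15).

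Per length, the members spanned a wide range of levels, from 0.129 to 56.6 RPKM (reads per kilobase, scaled for depth), and the median was 2.48 RPKM. Highest was ZNF146, also known as OZF, a protein made almost wholly of fingers, at 50.0 RPKM in OBF1 shRNA and 63.2 RPKM in control shRNA libraries. In CPM it was at 189, 199 and 190 in OBF1 shRNA libraries, against 238, 246 and 248 in control shRNA libraries, and its log2 fold change was -0.34 (SE 0.03, edgeR adjusted p = 4.50e-09). ZNF581, at 29.3 RPKM in OBF1 shRNA and 33.8 RPKM in control shRNA libraries, and ZNF428 followed on 19q. On 19p the highest were ZNF90, ZNF101 and ZNF317. ZNF90 went against the majority, at 145, 140 and 141 CPM in OBF1 shRNA libraries and 112, 118 and 116 CPM in control shRNA libraries (log2 fold change 0.30, SE 0.03, edgeR adjusted p = 6.49e-08). ZNF101 and ZNF317 were 1.31- and 1.27-fold lower.

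Of the members on a list of genes with known roles, ZNF274, ZNF93 and ZNF121 were lower and ZNF91 was not called. ZNF274, which brings SETDB1 to the 3′ ends of zinc finger genes, was at 22.4, 22.2 and 23.0 CPM in OBF1 shRNA libraries, against 29.80, 29.02 and 31.10 CPM in control shRNA libraries (log2 fold change -0.41, SE 0.05, edgeR adjusted p = 4.37e-07). ZNF93, a repressor of LINE-1 elements, was 1.39-fold lower, at 2.45 ± 0.222 CPM in OBF1 shRNA libraries and 3.42 ± 0.0489 CPM in control shRNA libraries (SD, n = 3 each). ZNF91, a repressor of SVA elements, was at 8.34, 8.96 and 7.98 CPM in OBF1 shRNA libraries, against 9.19, 8.81 and 9.55 CPM in control shRNA libraries, and the groups overlapped (log2 fold change -0.12, SE 0.08, edgeR adjusted p = 0.154). On library sizes alone ZNF91 was called lower (edgeR adjusted p = 0.0118, log2 fold change -0.23), and with the GC offset its log2 fold change was 0.05. ZNF121, reported as a partner of MYC, was 1.38-fold lower. ZNF350, ZNF224 and ZNF568 did not reach 1 CPM.

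Genes through which KRAB proteins act, or that form and keep H3 lysine 9 methylation, were called in both directions. Of 20 listed, all were tested, 11 were lower (55%), 5 higher (25%) and 4 not called, with a median log2 fold change of -0.08. The share called, 80%, was near the 75.4% of all genes tested, of which 37.9% were lower and 37.5% higher. On library sizes alone 15 were lower and 2 higher. With the GC offset 8 were lower and 6 higher, and the same fit without the offset gave 9 lower and 5 higher. TRIM28, the direct partner of the KRAB domain, was at 565, 535 and 565 CPM in OBF1 shRNA libraries, against 603, 629 and 590 CPM in control shRNA libraries, 1.09-fold lower (edgeR adjusted p = 5.38e-04). SETDB1 was also 1.09-fold lower. The histone deacetylase gene HDAC1 rose 1.72-fold, to 682.8 ± 8.997 CPM in OBF1 shRNA libraries against 398 ± 2.92 CPM in control shRNA libraries (SD, n = 3 each). CHD3, a remodeller of the NuRD complex, rose 1.45-fold. CBX3, encoding HP1 gamma, was 1.32-fold lower, at 561 ± 4.19 CPM in OBF1 shRNA libraries and 742 ± 4.82 CPM in control shRNA libraries (SD, n = 3 each). PPHLN1, SUV39H1 and MORC2, all of H3 lysine 9 methylation and silencing, were 1.12- to 1.16-fold lower. With the offset for GC content described below, the log2 fold change of PPHLN1 was -0.06 in place of -0.17 and its call was lost (edgeR adjusted p = 0.0502), and that of SUV39H1 was -0.33 in place of -0.21. On library sizes alone the values were -0.28 for PPHLN1, -0.32 for SUV39H1 and -0.31, in place of -0.20, for MORC2.

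The base composition of the transcripts moved with the fold changes. The longest transcript of a member had 42.4% G and C at the median, against 60.3% in the other chromosome 19 genes, 48.3% in all non-ZNF protein-coding genes and 62.6% in the members without a KRAB box. Over non-ZNF protein-coding genes, the median log2 fold change was -0.14 under 40% GC, -0.08 from 40% to 45%, 0.00 from 45% to 50%, 0.03 from 50% to 55% and 0.17 from 55%. Over the KRAB members it was -0.49, -0.37, -0.40, -0.26 and -0.06 in the same ranges, with 42, 60, 25, 7 and 4 genes. Over the non-ZNF genes of chromosome 19 it was -0.24, -0.28, 0.20, 0.15 and 0.22, with 3, 10, 17, 67 and 517 genes. Of the 42 KRAB members under 40% GC, 85.7% were called lower, and of 1603 non-ZNF genes in that range 54.5%. With a smooth offset per library for GC content, which was added once the data had been seen, 100 members were lower and 15 higher. That fit took in 10956 genes with a GC value; without the offset, the same genes gave 106 members lower and 16 higher and a median of -0.34. With the offset, the median of all members was -0.26 and that of the KRAB members -0.31. Of the calls in non-ZNF genes, 45.7% on 19p and 43.1% on 19q were then lower. The offset removes any change that follows GC, whatever its source, and what lies behind the relation was not tested.

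**Figure D5:**
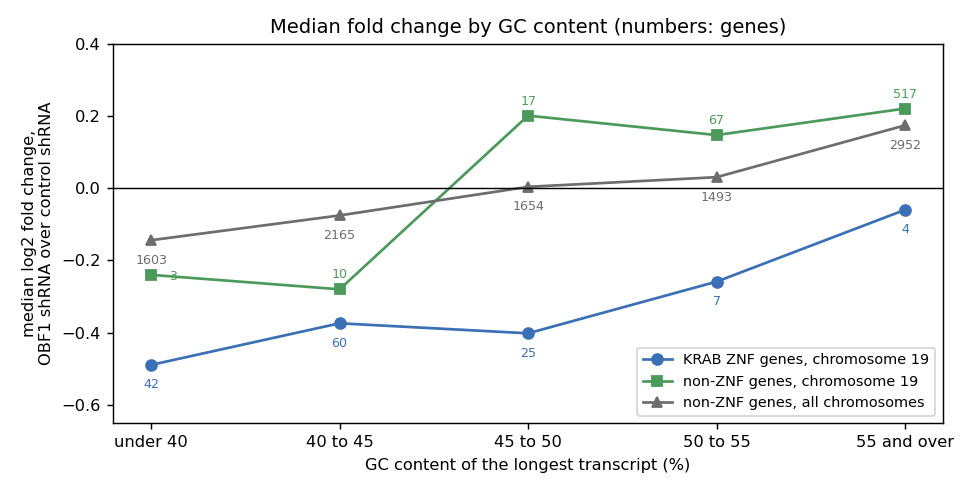
Median log2 fold change, OBF1 shRNA over control shRNA, of genes in 5 ranges of transcript GC content, with the number of genes beside each point. Circles are KRAB ZNF genes of chromosome 19, squares its non-ZNF genes and triangles non-ZNF genes of all chromosomes; the circles lie below the triangles in each range, at -0.49 against -0.14 under 40% GC.

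Fingers, length and level were also set beside the fold changes. KRAB members with 16 or more fingers had a median log2 fold change of -0.57 (33 genes), those with 9 to 15 fingers -0.36 (85 genes) and those with up to 8 fingers -0.42 (20 genes, among them ZNF738, in which no finger was found). Across the 138 KRAB members, Spearman's rho of the log2 fold change was -0.10 with the number of fingers, -0.11 with the deposited gene length and 0.19 with the mean RPKM. These are descriptions over genes that share libraries and often ancestry. Among the 54 members with the lowest RPKM, 36 were lower (66.7%) and 1 higher (1.85%). Among the 54 with the highest, 36 were lower (66.7%) and 9 higher (16.7%). Of all members 65.8% were lower and 9.94% higher, and of all genes tested 37.9% and 37.5%. The share called in either direction was 68.5% at the lowest RPKM and 83.3% at the highest.

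Around the minimum of 1 CPM, the genes just inside were ZNF814, ZNF799 and ZNF570, with means of 1.13, 1.22 and 1.45 CPM by library size. Those just outside were ZNF790, ZNF726 and ZNF878, with means of 0.966, 0.932 and 0.924 CPM. In TMM-scaled CPM, ZNF790 was at 0.675 ± 0.0997 in OBF1 shRNA and 1.24 ± 0.0143 in control shRNA libraries, and ZNF878 at 1.13 ± 0.214 in OBF1 shRNA and 0.737 ± 0.00704 in control shRNA libraries (SD, n = 3 each). ZNF726 was at 0.884 ± 0.0653 in OBF1 shRNA and 0.976 ± 0.252 in control shRNA libraries. Just inside, ZNF814 was at 0.846 ± 0.183 in OBF1 shRNA and 1.39 ± 0.194 in control shRNA libraries, and ZNF799 at 0.983 ± 0.116 in OBF1 shRNA and 1.44 ± 0.180 in control shRNA libraries (SD, n = 3 each). Of these genes only ZNF726 had overlapping groups, and ZNF878 alone was higher in OBF1 shRNA libraries.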

How the data were processed

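Poly(A) RNA libraries of Raji cells, 3 per group, were grouped and numbered by their titles. The authors deposited 1 table of raw read counts per gene with a column of gene lengths. Per the labels' protocols, libraries were made with a stranded kit, and the submitters' processing notes list hg19 and mm9. Not given in the sources used here are the aligner, counter, annotation and strand setting; no other column of per-sample values was present.

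Of 23459 rows, 23308 matched a RefSeq gene (GRCh38.p14), which gave symbols, chromosome, arm and gene order. The 151 others held 0.115% to 0.138% of counts. Arms were split at the widest gene-free gap of chromosome 19. Counts were tested with edgeR 4.0.16 in R 4.3.3 (filterByExpr, TMM, quasi-likelihood F test, Benjamini-Hochberg over 12010 genes), after the code was tested on simulated data. RPKM uses the deposited length. C2H2 fingers, the KRAB A box (an ungapped BLOSUM62 score of at least 40 against a consensus of 40 residues, set in the gap between the scores) and GC content come from GENCODE 29 transcripts joined by NCBI gene number, since the planned RefSeq proteins were not used here. Members overlapping a readthrough gene, 4 in all, were taken out in an alternative.

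Members and lists were chosen with earlier results of these data known. The genes named are, on each arm, up to 6 called members with the largest rises and 6 with the largest falls whose groups do not overlap, the 3 highest by RPKM, 3 genes either side of the level minimum, 7 listed genes with known roles where they are members, and the 6 genes with the smallest p of the 20 through which KRAB proteins act. Other names were picked after their values were seen. Alternatives were DESeq2 1.42.0, limma-voom (limma 3.58.1), other scalings and filters, the replicate block, other membership rules and leaving out each library. Chi-square per degree of freedom between libraries of 1 group was 1.89 to 3.28, so none looked like another deposited again.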

Additional observations from a re-analysis of the deposited data

How the results depend on the processing

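Of the 122 members called, 110 were also called with DESeq2, 117 with library sizes alone, 120 with upper-quartile factors, 121 without a low-count filter, 108 with the GC offset, 122 on the same genes without the offset (both chosen after seeing the data) and 116 to 121 with 1 library left out; none of these calls changed direction in any fit run. Rises numbered 8 among KRAB members alone, in place of 16. On 19q rises numbered 7 with DESeq2, 7 with library sizes alone and 3 among KRAB members alone, in place of 11. With library sizes alone, which moved all genes by -0.11 at the median, the median log2 fold change was -0.45 for all members, -0.46 on 19p and -0.45 on 19q, and 2 genes through which KRAB proteins act were higher, in place of 5. With the GC offset the medians were -0.26, -0.20 and -0.28. Among KRAB members alone with at least 1 finger they were -0.40 for all and -0.42 on 19q. The 19q median was also -0.33 with DESeq2, -0.36 with upper-quartile factors and -0.35 at a minimum of 0.5 CPM. Leaving out 1 library at a time gave medians of -0.36 to -0.32 for all members, -0.37 to -0.31 on 19p and -0.36 to -0.32 on 19q, 14 to 18 rises and 103 to 107 falls.

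Same-numbered libraries did not deviate together (correlations of 0.00979, -0.119 and -0.0639), so the numbers were not taken as pairs. With the replicate block 15 members were higher and 106 lower. Of 686 values of 43 named genes under these settings, 671 kept direction and call, 11 lost the call, 1 gained it and 3 changed sign, all among genes not called. The sign changes were ZNF726 (0.070 without control shRNA replicate 3, within -0.30 to 0.070 over the libraries left out, and 0.011 with the GC offset) and ZNF91 (0.051 with the GC offset). The causes were not tested. Of the 11 lost calls, 8 were of ZNF878, ZNF799 and ZNF814, which lie near 1 CPM.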
